A study of Mus musculus with 64 samples.

Results

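The metabolic nuclear receptors examined were Nr1i2, Nr1i3, Nr1h4, Nr0b2, Nr5a2, Nr1h3, Ppara, Pparg, Rxra and Hnf4a. They were taken by symbol from the gene count lists, and all 10 were found among the 23338 genes listed for every library. Their reads were described in 64 libraries of C57BL/6 mice (C57BL/6 J in the study's methods), which carried no transgene or treatment in the labels: 12 single eight-cell embryos (6 male and 6 female), 4 embryonic stem (ES) cell samples (2 male and 2 female), 24 fetal livers (12 male and 12 female) and 24 adult livers (12 male and 12 female). The ES cells had been derived from eight-cell embryos and kept in 2i medium, which holds inhibitors of MEK and GSK3 kinases. Fetal livers were from late gestation and adult livers from mice of 15 to 20 weeks. Embryos were amplified by a single-cell protocol and the other samples were made with a stranded total RNA kit, and in comparisons with embryos the protocol and the stage cannot be told apart. Levels below are CPM, that is, counts brought to the same total of reads on genes in each library and scaled by TMM factors over all 64 libraries.

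Nuclear receptors are transcription factors that bind DNA at short hexamer motifs and change the transcription of nearby genes, many of them upon binding a small ligand. In liver the family senses foreign compounds, bile acids, oxysterols and fatty acids, and it sets the levels of enzymes and transporters that handle them. Most of the receptors listed above act as pairs with RXRalpha, whereas HNF4alpha binds DNA with a second copy of itself, LRH-1 binds alone, and SHP has no DNA-binding domain and represses other receptors.

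In GRCm38 the genes lie at chr16:38248323-38294824 (Nr1i2), chr1:171213970-171220701 (Nr1i3), chr10:89454234-89533585 (Nr1h4), chr4:133553376-133556536 (Nr0b2), chr1:136842571-136960448 (Nr5a2), chr2:91184061-91202834 (Nr1h3), chr15:85734983-85802819 (Ppara), chr6:115360951-115490399 (Pparg), chr2:27676440-27762957 (Rxra) and chr2:163506808-163572910 (Hnf4a). Reads were counted over whole genes, so that transcripts from different starts of a gene were not separated.

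Between 1567583 and 10386931 reads per library fell on genes, and adult livers were the shallowest, with a median of 2708579. A count of 3 reads corresponded to 0.801 to 2.28 CPM in adult livers and to at most 0.596 CPM in the other libraries, which covers counting error only. The summed level of 8 hepatocyte markers was at least 27754 CPM in every liver and at most 103 CPM in ES cells and embryos, whereas 7 pluripotency genes summed to at least 307 CPM in ES cells and embryos and to at most 37.1 CPM in livers. Female fetal liver 14 stood apart. Its median Spearman correlation with other fetal livers was 0.945, against 0.969 for the next lowest library, and 8 intestinal markers, chosen after its values were seen, summed to 1561 CPM there against 3.76 to 11.3 CPM in the other 23 fetal livers. Pancreatic markers, 5 genes also chosen after values were seen, summed to 704 CPM in female liver 15, 338 CPM in male liver 12, 150 CPM in female liver 24, 111 CPM in male liver 11 and 88.6 CPM in female liver 14, against a fetal median of 1.24 CPM. Liver 14 had the highest Nr1i2, Nr1h4, Nr0b2, Hnf4a, Pparg and Nr1i3 values of the fetal livers, and the part of non-hepatic RNA in these was not tested. Among fetal livers, the share of reads outside genes ran from 39.9% to 49.0% for males and from 34.1% to 38.1% for females, without overlap, so that sex and this share cannot be told apart there.

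Of the sensors of foreign compounds, Nr1i2 (PXR) and Nr1i3 (CAR) were liver genes in this series. Nr1i2 had no read in any of the 12 embryos. Its 4 ES samples gave 0.0722 and 0.437 CPM (male) and 0.0769 and 0 CPM (female), from 8 reads in all. In fetal liver Nr1i2 was at 28.7 CPM in the lowest, 36.3 in the median and 53.4 in the highest library, and in adult liver at 90.6, 120 and 210 CPM. The fetal and adult ranges of Nr1i2 did not overlap. Nr1i3 was likewise at 0 in all 12 embryos, and its ES values were 0.144 and 0.291 CPM (male) and 0.692 and 0.628 CPM (female). Fetal livers held 4.68 to 13.4 CPM of Nr1i3 with a median of 7.87. Adult livers held 88.9 to 382 CPM, with a median of 216. Nr1i3 thus had a wide gap between liver ages and, with a coefficient of variation of 34.2%, the widest relative spread among adult livers of the receptor genes above 100 CPM. The Nr1i3 exons, on the + strand, share 3304 bases with those of the antisense gene Tomm40l in GENCODE, and the strand setting of the counting is not given in the sources used here. Without it, it cannot be told whether reads in the shared bases went to either gene or to the ambiguous tally, which counts for no gene. Nr1i3 may thus be undercounted. Tomm40l itself was counted at 14.7 to 22 CPM in fetal and 6.83 to 27.2 CPM in adult livers, an order that differs from that of Nr1i3.

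Nr1h4 encodes the bile acid receptor FXR, Nr0b2 the repressor SHP that FXR induces, and Nr5a2 the receptor LRH-1, which drives bile acid synthesis genes. Nr1h4 was at 24.5, 40.6 and 62.7 CPM (lowest, median, highest) in fetal and at 142, 191 and 231 CPM in adult liver. Among ES samples it had 1 read in each male sample (0.0722 and 0.0728 CPM) and none in the female samples. In embryos it was at 0 in 9 of 12 libraries. Nr0b2 was the receptor gene with the lowest fetal level, between 0 and 1.77 CPM with a median of 0.382, from 90 reads over all 24 libraries. Adult livers held 17.6, 40.6 and 67.8 CPM of Nr0b2. Every adult liver therefore exceeded every fetal liver for both genes. In ES cells Nr0b2 had a single read, and among embryos all 30 of its reads were in female embryo 10, which was also the female embryo with Nr1h4 reads.

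Nr5a2 had a different course. LRH-1 is also known for its role in the early embryo and in pluripotent cells. Nr5a2 was at 67.2, 129 and 176 CPM (lowest, median, highest) in embryos. The ES samples had 139 and 122 CPM (male) and 109 and 121 CPM (female). Fetal livers were lower, at 37.5, 44.3 and 52.6 CPM, without overlap with any other stage. Adult livers were at 99.8, 125 and 155 CPM. The adult, ES and embryo ranges of Nr5a2 overlapped.

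Nr1h3 encodes the oxysterol receptor LXRalpha and Rxra the common partner RXRalpha. Both had reads in every embryo. Nr1h3 was at 14.9, 30.9 and 67.8 CPM in embryos, and its ES values were 0.289 and 0.509 CPM (male) and 0.461 and 0.393 CPM (female). In livers its level was 23.6, 28.0 and 33.9 CPM before and 115, 157 and 185 CPM after birth. The embryo range of Nr1h3 spanned the fetal range, and the ES values lay below all other libraries. Rxra was at 80.9, 139 and 181 CPM in embryos and at 105, 139 and 165 CPM in fetal livers. Its ES values were 12.5 and 13.5 CPM in the male and 28.3 and 31.3 CPM in the female samples. Adult livers were highest, with 434, 491 and 610 CPM. For Hnf4a, too, the male ES samples (0.433 and 0.728 CPM) lay below the female samples (1.54 and 2.04 CPM). With 2 samples per sex, these ES values are given without a test.

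Ppara encodes the fatty acid receptor that drives fat oxidation in hepatocytes, Pparg the receptor that drives fat storage in adipocytes, and Hnf4a a main regulator of hepatocyte identity. Ppara was at 0 in the 12 embryos and at 0.144, 0.218, 0.154 and 0 CPM in the ES samples 1 to 4. Its livers ranged from 165 to 246 CPM (median 190) in fetuses and from 389 to 665 CPM (median 471) in adults. Hnf4a was at 0 in the 12 embryos, at 242 to 321 CPM (median 271) in fetal and at 681 to 1344 CPM (median 876) in adult livers. These genes separated the liver ages completely. Pparg was the lowest of the receptors in adult liver, with 3.75, 12.3 and 26.4 CPM, and its fetal values of 2.97, 4.22 and 7.20 CPM overlapped them. The 6 adipocyte markers summed to 84.6 CPM in female adult liver 13, which also had the highest Pparg value among females (20.2 CPM), and to at most 6.45 CPM in the other 23 adult livers. The part of fat tissue in Pparg was not tested.

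**Figure D1:**
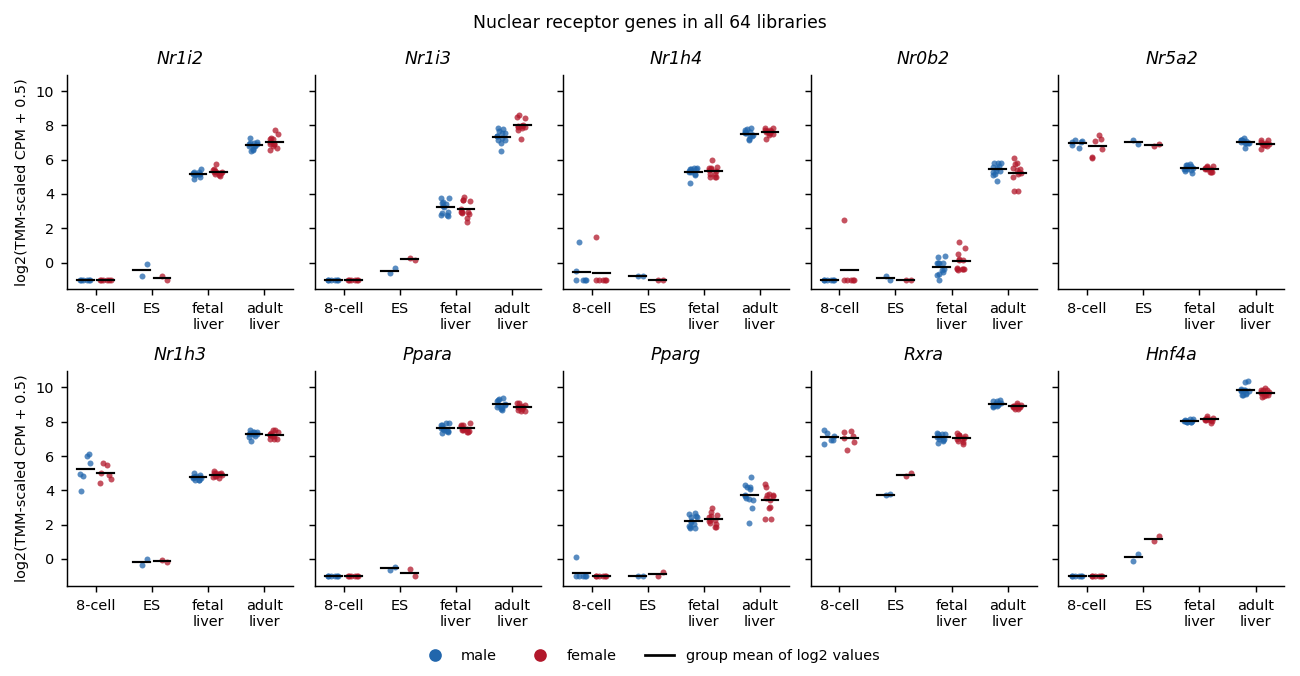
Each point is 1 of the 64 libraries, with the stage on the x axis and log2(TMM-scaled CPM + 0.5) on the y axis, males in blue and females in red, and bars at group means of the log2 values. Adult livers are highest for 8 of the 10 genes, Nr5a2 and Pparg being the exceptions with overlapping ranges, and only Nr5a2, Nr1h3 and Rxra lie well above 0 in all 12 embryos.

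To compare genes with each other, CPM were divided by the length of the longest RefSeq-matched GENCODE transcript. Per kilobase, fetal livers had most Hnf4a (62.6 ± 3.97 CPM per kb, SD, n = 24) and Ppara (58.1 ± 7.66), whose ranges overlapped, followed by Rxra (27.7 ± 3.49). The fetal order continued with Nr1h4, Nr1i2, Nr1h3, Nr5a2, Nr1i3 and Pparg and ended with Nr0b2 (0.439 ± 0.355). Among fetal neighbours, ranges were apart only between Ppara and Rxra and between Nr1h3 and Nr5a2. In adult livers Hnf4a was again first (204 ± 35.8), and Nr1i3 had moved from rank 8 to rank 2 (152 ± 52.0). That rank rests on the length used for Nr1i3, 1414 bases, against 4414 bases for all its exons, 3304 of them shared with Tomm40l. Reads were counted over whole genes, and ranks by the length of all exons were not computed. Nr0b2 rose to 37.0 ± 10.7 CPM per kb, above Nr5a2 (26.8 ± 2.79), with overlapping ranges. Only the last adult neighbours, Nr5a2 and Pparg (5.89 ± 2.59), were apart. The ES samples had Nr5a2 first (26.0 ± 2.59, n = 4), Rxra second (4.37 ± 2.00), and no other receptor above 0.310 CPM per kb on average.

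**Figure D2:**
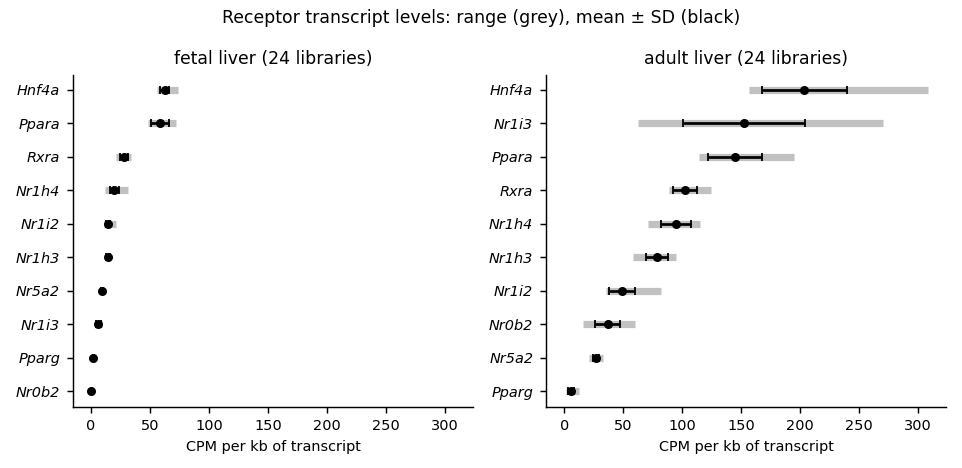
The x axis gives CPM per kb of transcript for each receptor gene in fetal (left) and adult (right) liver, with the range over 24 libraries in grey and the mean ± SD in black. Hnf4a leads at both ages with means of 62.6 and 204, and Nr1i3 climbs from rank 8 to rank 2. The rank of Nr1i3 rests on a transcript length of 1414 bases, against 4414 bases for all its exons.

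The comparison of adult with fetal liver asked how the receptors change as the organ passes from the fetal to the adult state. All 10 receptors were higher in adult liver and were called, that is, had a Benjamini-Hochberg adjusted p-value under 0.1 in edgeR's quasi-likelihood test and an absolute log2 fold change above 0.5. Genes called in this comparison made up 67.1% of the 13026 tested, 31.7% being higher and 35.4% lower in adults, against which the count of receptors is to be read. The largest increases were those of Nr0b2 (log2 fold change 6.51 ± 0.17, SE; adjusted p = 2.38e-37) and Nr1i3 (4.67 ± 0.12; adjusted p = 2.99e-36). Nr0b2, with 90 reads over all 24 fetal livers, did not pass the expression filter within fetal liver. It passed here through the adult livers, where it was high, so the filter favoured its call and its direction. Nr1h3 rose by 2.56 ± 0.04, Nr1h4 by 2.36 ± 0.06 and Rxra by 2.00 ± 0.05 on the log2 scale. Log2 increases were 1.86 ± 0.06 for Nr1i2, 1.82 ± 0.05 for Hnf4a, 1.62 ± 0.04 for Nr5a2 and 1.61 ± 0.14 for Pparg. Ppara changed least, by 1.42 ± 0.05. The median over the receptors was 1.93, and that over all genes tested was -0.05. For 9 of the 10 receptors, Pparg being the exception, every adult library lay above every fetal library, which held for 16.4% of all genes tested.

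The scaling mattered for the size of these changes. With library totals in place of TMM factors, the median of all genes moved to -0.61, and the 10 receptors kept their calls with log2 fold changes from 0.85 for Ppara to 5.95 for Nr0b2. The libraries also differed in marker sums. The 8 hepatocyte markers summed to 27754 to 37854 CPM in fetal and 54224 to 79474 CPM in adult livers. The 10 erythroid markers found, of 12 listed, summed to 4952 to 7248 CPM in fetal and 54.5 to 358 CPM in adult livers. The 4 globin genes Hba-a1, Hba-a2, Hbb-b1 and Hbb-b2 were at 0 in adults. Reads aligned to several places were tallied outside genes, so a count of 0 need not mean absent RNA. In bulk tissue, fewer cells of a type and less RNA per cell cannot be told apart, and the part of either in the increases was not tested.

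Within each sex the increases had the same order of size at the top. Nr0b2 rose by 6.99 ± 0.25 (SE) in males and by 6.03 ± 0.23 in females. For Nr1i3 the log2 increase was 4.30 ± 0.16 in males and 5.03 ± 0.17 in females. The remaining 8 receptors rose by 1.51 to 2.65 in males and by 1.34 to 2.47 in females.

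**Figure D3:**
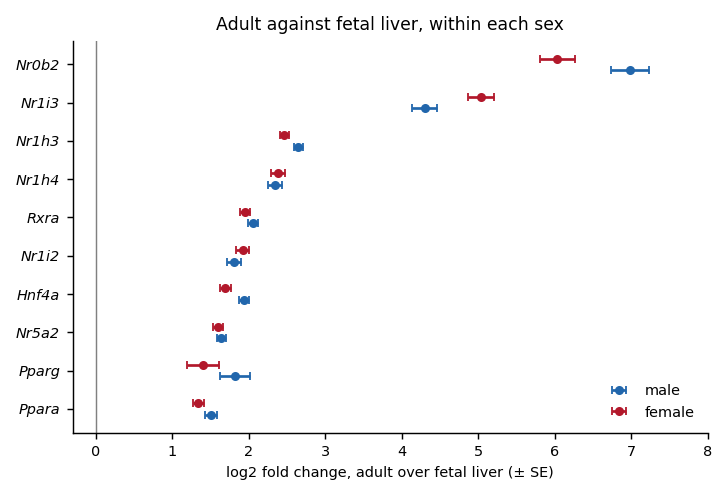
Points give the log2 fold change of adult over fetal liver for each receptor within males (blue) and females (red), with bars of ± 1 SE. All 20 estimates lie above 0, and the sexes lie farthest apart for Nr0b2 (6.99 in males against 6.03 in females) and Nr1i3 (4.30 against 5.03).

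Genes of the pathways that these receptors are known to control were counted next. Of 18 PXR and CAR targets tested, 17 were called higher in adults and 1 lower, with a median log2 fold change of 3.48. Cyp2c29, a drug-metabolizing cytochrome, changed most (13.39 ± 0.26, SE), and it had 68 reads in all 24 fetal livers, most of them in a single female library at 7.08 CPM. DESeq2 gave 13.57 for it, with no adjusted p. Gadd45b, a stress gene, was the PXR and CAR target called lower (-0.85 ± 0.19). HNF4alpha targets were called higher for 16 of 16 genes (median 2.13), led by Pck1 (9.85 ± 0.35) and Tat (9.35 ± 0.22), enzymes of gluconeogenesis and tyrosine breakdown. PPARalpha targets were called higher for 16 of 19 genes and lower for 1 (median 2.44). Cyp4a14, a fatty acid omega-hydroxylase, led with 6.44 ± 0.29, and Pdk4, which restrains glucose oxidation, was lower (-0.89 ± 0.13).

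In the bile acid list of FXR and SHP, 8 of 11 genes were called higher and none lower (median 1.79). Cyp7b1, of the alternative bile acid route, rose most (8.15 ± 0.19), followed by the bile salt export pump gene Abcb11 (3.19 ± 0.05). LXR targets were divided, with 8 of 12 called higher and 2 lower (median 1.05). The sterol transporter genes Abcg5 (6.69 ± 0.10) and Abcg8 (5.76 ± 0.10) led and Abcg1, of cholesterol efflux, was lower (-1.07 ± 0.06). PPARgamma targets were the 1 target list with a median below that of all genes (-0.74), with 1 of 4 called higher, the lipid droplet gene Plin4 (0.91 ± 0.16), and 2 lower, Lpl (-4.17 ± 0.10) and Fabp4 (-1.22 ± 0.17). The sign of this list depended on the filter and tool. DESeq2, which tested all 9 genes, called 3 higher and 1 lower with a median of 1.82 and gave Fabp4 (-1.34) no adjusted p. Cidea had this value of 1.82, at means of 0.202 CPM in male and 0.473 CPM in female adult livers, under the floor of 3 reads. Female adult liver 13 held 84.6 CPM of adipocyte markers, and its part in the DESeq2 values was not tested. With library totals, PXR and CAR targets were higher for 16 and lower for 1, and HNF4alpha targets higher for 14. PPARalpha targets were then higher for 15 and lower for 1, and FXR and SHP genes higher for 8 and lower for 1. LXR targets were higher for 6 and lower for 3, and PPARgamma targets higher for 0 and lower for 3. That scaling moved the median of all genes to -0.61, a shift that these counts share.

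The close relatives of the receptors and their coregulators were counted in the same way. Of 6 paralogs tested, 1 was called higher and 3 lower. Rxrg rose by 6.18 ± 0.24 (SE), but from 15 reads in all fetal livers to 2.71 to 14.6 CPM in adults. Hnf4g fell (-2.76 ± 0.71), and it could not be tested without female fetal liver 14, which held 67.4 CPM of it. Nr1h5 (-1.12 ± 0.12) and the third PPAR gene, Ppard (-0.61 ± 0.13), were also called lower. For Rxrb (0.33 ± 0.05) and Nr1h2, the gene of LXRbeta (0.22 ± 0.06), the log2 fold changes were under the threshold of 0.5. Of 14 coregulators, 4 were called higher, Lpin1 leading with 1.07 ± 0.24, and 4 lower, Ep300 leading with -0.84 ± 0.09, near the shares of all genes called (31.7% higher and 35.4% lower). With library totals the coregulators gave 0 higher and 7 lower. That scaling moved the median of all genes to -0.61, so these 2 counts are not to be read against the shares above.

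The receptors rose together between liver ages, and their promoters were searched for the hexamer that many nuclear receptors bind (AGGTCA), for its extended form bound by LRH-1-like receptors (AAGGTCA, which contains the former) and for a hexamer of the hepatocyte factor HNF1 (GTTAAT), on both strands of the 250 bases before each RefSeq start (GRCm38.p6). There were 16 windows for the 10 genes, 5 of which had more than 1 start, and the counts pool all starts of a gene. AGGTCA was found in 5 windows of 4 genes (Nr5a2, Rxra, Pparg and Nr1h4), against 4607 of all 32851 windows. AAGGTCA was found in 1 window, of Rxra (4.08% of all), and GTTAAT in 3 windows, of Nr5a2, Nr1h4 and Hnf4a (6.43% of all). The windows below are shown because they hold more than 1 match, and that of Nr1i3 because this gene differed between the sexes. Capitals mark matches.
Nr5a2, chr1:136960449-136960698, - strand: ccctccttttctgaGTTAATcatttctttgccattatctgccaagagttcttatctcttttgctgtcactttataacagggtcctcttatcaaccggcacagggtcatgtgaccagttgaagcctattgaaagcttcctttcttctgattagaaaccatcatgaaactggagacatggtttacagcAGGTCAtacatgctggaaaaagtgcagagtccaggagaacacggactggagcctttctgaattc
Rxra, chr2:27709042-27709291, + strand: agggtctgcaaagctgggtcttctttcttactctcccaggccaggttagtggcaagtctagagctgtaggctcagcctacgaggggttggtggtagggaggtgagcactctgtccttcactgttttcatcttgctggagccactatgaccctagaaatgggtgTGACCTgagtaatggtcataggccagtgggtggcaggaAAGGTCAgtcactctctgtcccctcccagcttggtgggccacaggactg
Nr1h4, chr10:89506659-89506908, - strand: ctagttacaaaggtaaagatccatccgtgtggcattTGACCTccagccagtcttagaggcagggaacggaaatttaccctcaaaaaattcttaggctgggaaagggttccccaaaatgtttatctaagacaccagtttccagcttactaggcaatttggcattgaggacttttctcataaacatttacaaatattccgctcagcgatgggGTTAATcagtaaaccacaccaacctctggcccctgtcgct
Hnf4a, chr2:163546905-163547154, + strand: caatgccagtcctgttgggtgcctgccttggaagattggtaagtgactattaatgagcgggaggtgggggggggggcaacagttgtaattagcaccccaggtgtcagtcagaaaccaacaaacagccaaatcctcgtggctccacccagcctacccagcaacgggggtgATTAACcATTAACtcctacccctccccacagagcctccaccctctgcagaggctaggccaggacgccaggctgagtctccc
Nr1i3, chr1:171213720-171213969, + strand: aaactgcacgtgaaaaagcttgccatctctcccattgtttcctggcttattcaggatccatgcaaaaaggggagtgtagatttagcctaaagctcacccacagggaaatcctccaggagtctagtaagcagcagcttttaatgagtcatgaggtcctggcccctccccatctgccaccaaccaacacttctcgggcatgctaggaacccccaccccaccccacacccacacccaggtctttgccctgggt
In this Hnf4a window, at the start used in adult hepatocytes, the HNF1 hexamer lies 81 to 76 and again 74 to 69 bases before the start, on the opposite strand. In Rxra the extended hexamer lies 49 to 43 bases before the start. The Nr1i3 window holds no match to the 3 motifs. These are matches of letters and not measured binding.

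Fetal liver was also compared with ES cells, to place the receptors before liver formation. All 10 were called, 9 higher in fetal liver and Nr5a2 lower, where 76.4% of 14858 genes were called, 40.9% higher and 35.5% lower. Nr5a2 fell from ES cells to fetal liver by 1.51 ± 0.06 (SE) on the log2 scale (adjusted p = 1.63e-20). Rxra rose by 2.63 ± 0.18, Nr1h3 by 6.00 ± 0.13 and Nr1i3 by 4.26 ± 0.36. Hnf4a rose by 7.80 ± 0.15, from 62 reads over the 4 ES samples, and Ppara by 10.36 ± 0.24, from 7 reads. For the genes with 1 or 2 ES reads, pooled ratios carried wide exact binomial 95% intervals. These were 1073-fold for Nr1h4 (297 to 8865), 237-fold for Pparg (42.4 to 9367) and 26.6-fold for Nr0b2 (4.66 to 1064). Nr0b2 passed the expression filter only with female fetal liver 14, and 9 receptors were called without that library.

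Between ES cells and embryos 5 receptors passed the filter and 3 were called, where 64% of 13511 genes were called and 25.9% were called lower in ES cells. Nr1h3 was lower in ES cells by 6.57 ± 0.54 (SE) on the log2 scale (adjusted p = 2.98e-08) and Rxra by 2.87 ± 0.29 (adjusted p = 3.29e-07). Hnf4a, at 0 in all embryos, was in ES cells at 31.8 times a floor of 3 reads over the embryos, from 62 reads. It was called by edgeR (adjusted p = 8.58e-04) and not by DESeq2 (adjusted p = 0.118). Nr5a2 differed by -0.10 ± 0.21 on the log2 scale (adjusted p = 0.694). These values are to be read against the median over all genes tested, which was not at 0. It was 0.49 in this fit, 0.94 with DESeq2 and 0.85 with library totals. For Nr1h4, reads from single embryos gave a log2 difference of -3.07 ± 1.93 (adjusted p = 0.182). Nr1i3 was in ES cells at 11.8 times the embryo floor, from 23 reads pooled over the samples. Nr1i2 was at 4.11 times (8 reads, 6 of them in male sample 2) and Ppara at 3.59 times (7 reads). These ratios and that of Hnf4a leave out the counting error of the ES reads and the spread between embryos, and are not lower bounds. Nr1i3, Nr1i2 and Ppara were not tested.

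The sexes were compared first in fetal liver. None of the 9 receptors tested was called by edgeR or by DESeq2, and 1 had an unadjusted p under 0.05, where 4.64% of 12930 genes were called, 3.81% higher and 0.828% lower in males. Nr0b2 did not pass the filter, with 30 reads in males and 60 in females. Nr1h3 was at 23.6, 26.5 and 32.0 CPM (lowest, median, highest) in males and at 26.0, 30.4 and 33.9 CPM in females. The sexes overlapped, and 11 of 12 females lay above the male median. Its log2 male/female value of -0.13 ± 0.05 (SE) had an adjusted p of 0.0603 but was under the fold threshold, and adjusted p-values alone were under 0.1 for 37.2% of genes. With the share of reads outside genes as a covariate it had the other sign (0.07, adjusted p = 0.994). The 95% intervals of the 9 log2 differences lay within -0.39, the lower end for Pparg, and 0.44, the upper end for Nr1i3. Nr1i3 itself was at 6.16, 9.09 and 13.3 CPM in males and 4.68, 7.31 and 13.4 CPM in females (log2 0.11 ± 0.17; adjusted p = 0.662).

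In adult liver Nr1i3 was the 1 receptor of 10 called between the sexes, and females had more. Genes called made up 9.49% of the 10372 tested, and 6.48% were called lower in males. Males ranged from 88.9 to 233 CPM of Nr1i3 with a median of 166. Females ranged from 146 to 382 CPM with a median of 245. The ranges overlapped, but 9 of 12 females lay above every male and 4 of 12 males below every female. Female livers 13, 14 and 15 were the highest, with 365, 382 and 345 CPM. The log2 male/female value was -0.68 ± 0.14 (SE; adjusted p = 6.77e-04), or 1.60-fold more in females, and it stayed between -0.71 and -0.65 under 6 alternatives with adjusted p-values up to 0.00632. Antisense Tomm40l had the opposite order of means, 17.4 ± 4.0 CPM in males and 13.5 ± 5.07 in females (SD, n = 12; log2 0.30 ± 0.16, SE; edgeR adjusted p = 0.171).

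The adult sexes also differed in marker sums. Hepatocyte markers summed to 54224 to 62775 CPM in males and 62621 to 79474 CPM in females. Erythroid markers summed to 233 to 358 CPM in males and 54.5 to 130 CPM in females, without overlap. With 4 globin genes at 0 in adults, these erythroid sums came from the other genes of the list. The same list summed to 760 to 904 CPM in ES cells, where these 4 globin genes were also at 0. At such levels the sum is therefore no measure of erythroid cells. The share of reads outside genes was 28.0% to 35.2% in males and 25.7% to 36.6% in females, and with it as a covariate the Nr1i3 difference was -0.67 (adjusted p = 0.00120). The part of what these sums reflect in the Nr1i3 difference was not tested.

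The other 9 receptors stayed under the fold threshold in adult liver. Nr1i2 was at 90.6, 115 and 154 CPM in males and 94.9, 125 and 210 CPM in females (log2 -0.26 ± 0.10, SE; adjusted p = 0.0487), and 9 of 12 females lay above the male median. Rxra had the opposite sign, with 460, 524 and 610 CPM in males and 434, 472 and 544 CPM in females (0.14 ± 0.05; adjusted p = 0.0616). An adjusted p under 0.1 alone was reached by 3 of the 10 receptors and by 32.8% of genes. For Ppara the medians were 497 CPM in males and 457 CPM in females (0.16 ± 0.08; adjusted p = 0.111). Nr1h4 gave -0.11 ± 0.07, Nr0b2 0.10 ± 0.17, Nr5a2 0.09 ± 0.06, Nr1h3 0.01 ± 0.07 and Hnf4a 0.15 ± 0.09, with adjusted p-values from 0.206 to 0.932. Pparg was measured least precisely (0.27 ± 0.24), and its 95% interval ran from -0.21 to 0.75.

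The difference between these sex gaps was tested as an interaction over the 48 livers. Nr1i3 was called, its male/female log2 value being lower in adults than in fetuses by 0.74 ± 0.23 (SE), that is, an interaction of -0.74 (adjusted p = 0.0135), where 13.7% of 13026 genes were called, 5.19% with a positive and 8.53% with a negative value. An adjusted p under 0.1 alone was reached by 33.7% of genes. With the share of reads outside genes as a covariate the value was -0.68 and no longer passed (adjusted p = 0.426), and 744 genes were then called in place of 1787. Antisense Tomm40l was also called, with the opposite sign (0.58 ± 0.16; adjusted p = 0.00439). The interaction of Nr0b2 was 0.95 ± 0.48 (adjusted p = 0.135). DESeq2 called it (adjusted p = 0.0689), as did edgeR on livers with at least 2000000 reads on genes (adjusted p = 0.0965), and without female fetal liver 14 it was 0.71 (adjusted p = 0.305). Hnf4a had an interaction of 0.25 ± 0.10 (adjusted p = 0.0528), under the fold threshold.

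**Figure D4:**
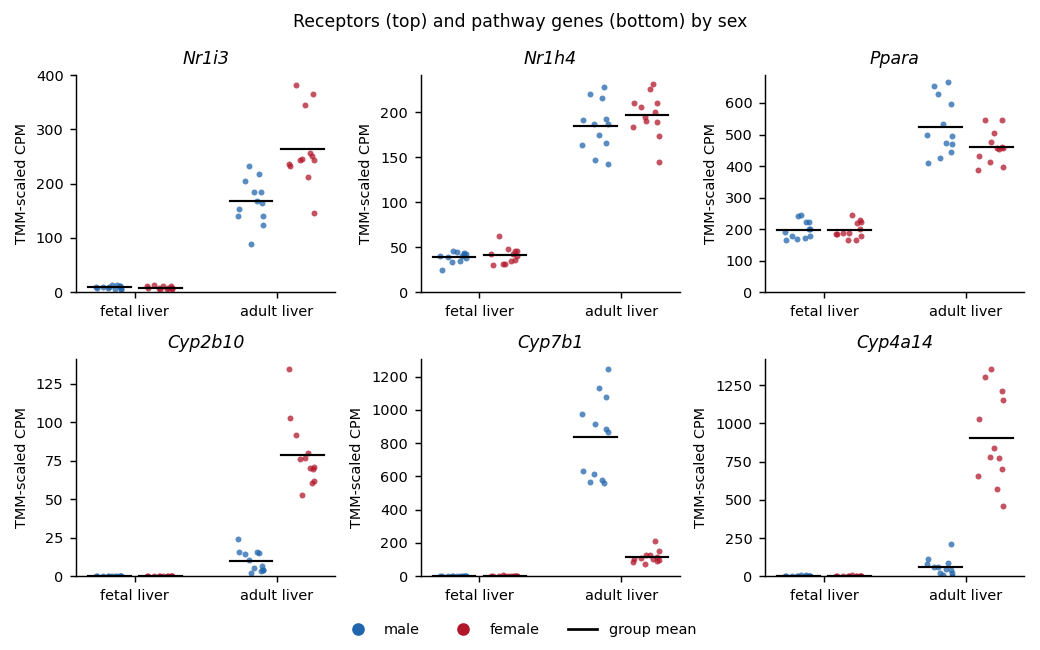
TMM-scaled CPM (y axes, starting at 0) of 3 receptors and 3 pathway genes in 12 male (blue) and 12 female (red) livers of each age, with bars at group means. Adult females lie mostly above males for Nr1i3 (146 to 382 against 88.9 to 233 CPM), Cyp2b10 and Cyp4a14 are higher in every adult female than in any adult male, Cyp7b1 is higher in every adult male, and Nr1h4 and Ppara overlap.

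Some pathway genes had larger sex differences in adult liver than the receptors themselves. Of 17 PXR and CAR targets tested, 6 were called lower in males and 1 higher, where 6.48% and 3.01% of all genes were, but the list's median was 0.12, against -9.4e-04 for all genes. Cyp2b10, the classic CAR target, ranged from 2.15 to 24.1 CPM in males and from 52.4 to 134 CPM in females (log2 -2.89 ± 0.25, SE; adjusted p = 2.40e-09). In fetal livers Cyp2b10 had 5 reads in each sex. The transporters Abcb1a (-1.96 ± 0.18) and Slco1a4 (-1.57 ± 0.16), the glucuronosyltransferases Ugt1a9 (-1.64 ± 0.13) and Ugt1a1 (-0.75 ± 0.06) and the reductase gene Por (-0.60 ± 0.14) were also higher in females. Cyp2c55 was higher in males (0.64 ± 0.17).

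Among PPARalpha targets, 7 of 19 were called lower in males and none higher, where 6.48% and 3.01% of all genes were. The list median was -0.03. Cyp4a14 was at 4.82 to 212 CPM in males and 462 to 1357 CPM in females (-3.88 ± 0.40; adjusted p = 9.15e-08), and Cyp4a10 gave -2.04 ± 0.27. The mitochondrial thioesterase gene Acot2 (-1.25 ± 0.19), Pdk4 (-0.76 ± 0.24), Ehhadh and Vnn1 (each -0.62) and Acot1 (-0.58 ± 0.19) were the other 5. Ppara itself, as given above, did not pass the test and had the opposite sign.

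In the FXR and SHP list 2 of 11 genes were called higher and 1 lower in males, where 3.01% and 6.48% of all genes were. Cyp7b1 was at 558 to 1246 CPM in males and 75.7 to 211 CPM in females (log2 2.82 ± 0.18, SE; adjusted p = 1.07e-11), and Cyp8b1, of the classic route to cholic acid, gave 0.60 ± 0.18. Cyp7a1, the rate-limiting enzyme of bile acid synthesis, was higher in females (-1.30 ± 0.25; adjusted p = 4.83e-04), with 139 to 769 CPM against 39.4 to 198 CPM in males. LXR targets had 1 of 12 called, Pltp (-0.72 ± 0.17), and HNF4alpha targets 1 of 16, Apoc3 (-0.51 ± 0.05). Both counts are near the share of all genes called, 9.49%. Apoc3 lay at the fold threshold and fell just under it with library totals (-0.50) and DESeq2 (-0.49). PPARgamma targets had Cd36 (-0.52 ± 0.14) lower and Plin4 (0.75 ± 0.29) higher in males among 4 tested.

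Of the paralogs, Rxrg was called lower in males (-0.67 ± 0.21), 1 of 4 tested. Of 14 coregulators, Ppargc1b was called higher (0.63 ± 0.17) and Ppargc1a lower in males (-0.59 ± 0.19), a pair of coactivators of energy metabolism. In all, 24 of 97 list genes were called in adult liver, where 9.49% of all genes were. The same 24 were called with the share of reads outside genes as a covariate.

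**Figure D5:**
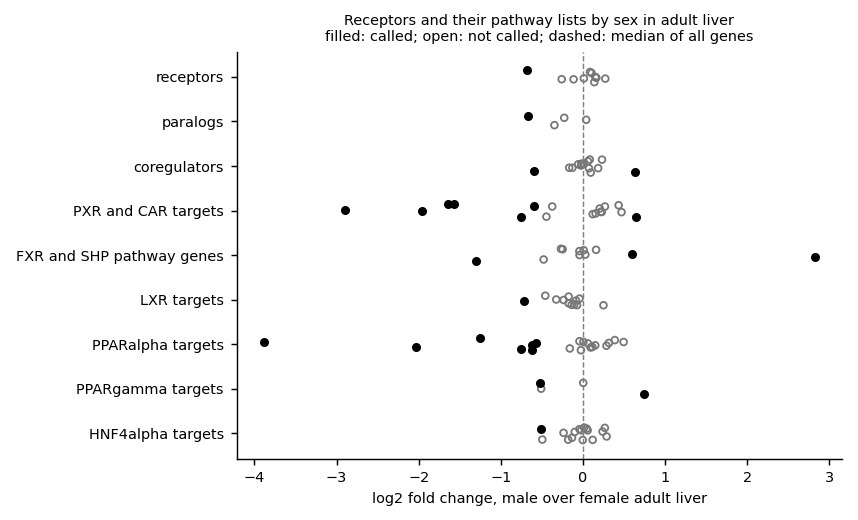
Each point is a gene of the receptor group or of a pathway list, with its log2 male/female value in adult liver on the x axis, filled where called and open where not, and the median of all genes as a dashed line. The called points reach from Cyp4a14 at -3.88 to Cyp7b1 at 2.82, while the receptors lie between Nr1i3 at -0.68 and Pparg at 0.27.

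In fetal liver 9 of 92 list genes were called between the sexes, where 4.64% of all genes were, 3.81% higher and 0.828% lower in males. None was called with the share of reads outside genes as a covariate. That share did not overlap between the fetal sexes, so the 2 cannot be told apart there. Among those called higher in males were the coregulators Ep300 (0.86 ± 0.13, SE), Ncoa6 (0.82 ± 0.13) and Crebbp (0.79 ± 0.09) and the paralog Ppard (0.66 ± 0.12). Aldh1a1 (-1.18 ± 0.35), Pck1 (-1.65 ± 0.59), Apoc3 (-1.18 ± 0.50) and Hnf4g (-1.89 ± 0.73) were called lower, and the last 3 lost their calls without female fetal liver 14. In the interaction 27 of 100 list genes were called, where 13.7% of all genes were, and 7 of these also with the covariate. Among these were Cyp4a14 (-4.01 ± 0.63) and Cyp7b1 (3.30 ± 0.50). Of the genes that lost the call with the covariate, some kept their size, such as Aldh1a1 (1.64, and 1.70 with the covariate) and Por (-0.66 and -0.67), and others did not, such as Ep300 (-0.72 and 0.06) and Crebbp (-0.68 and -0.10).

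The genes with the most similar course over all 64 libraries were found among the 13983 genes that averaged 1 CPM or more, by the root mean square difference of centred log2(CPM + 0.5) values. The closest match was that of Ppara with Klkb1, the gene of plasma prekallikrein (0.189, against a deviation of 4.03 of Ppara from its own mean), followed by Proz (0.211). Nr1i2 was closest to Ctso (0.265) and Tfpi2 (0.275), and Hnf4a to the liver gap junction gene Gjb1 (0.271) and AI182371 (0.329). Nr5a2 was closest to Zfp825 (0.306) and Aspscr1 (0.312), though its own deviation was only 0.738. For Nr1i3 they were Gstk1 (0.414) and Akr1c20 (0.418), for Rxra Pcyt2 (0.444) and Fam134a (0.452), and for Nr1h4 Iyd (0.450) and Slc10a5 (0.454). The matches were least close for Pparg with Ccdc122 (0.532) and Mid2 (0.533), for Nr1h3 with 0610005C13Rik (0.546) and Abhd3 (0.575), and for Nr0b2 with Ablim3 (0.594) and 0610031O16Rik (0.681).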

How the data were processed

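The authors deposited raw counts of reads per gene for each library, which the submitters' processing notes credit to TopHat2 2.0.4, Bowtie2 2.1.0, SAMtools 0.1.18, Picard and HTSeq on mm10. The strand setting is not given in the sources used here. Each list ends in 5 tally rows that name no gene, which were left out of library sizes. Of these, reads outside genes were used as a share of all counted reads. The groups came from the stage and gender labels. No 2 libraries held identical values.

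Counts were tested with edgeR 4.0.16 in R 4.3.3 (TMM, filterByExpr, robust quasi-likelihood F test, two-sided), adjusted over all genes tested, and called at an adjusted p under 0.1 and an absolute log2 above 0.5. Standard errors were obtained by dividing the absolute log2 fold change by the root of F. Tables were made in Python 3.11.15 (scipy 1.17.1, pandas 2.3.3, numpy 2.4.6). The steps were tested on simulated data. Depth per library is given with the results, and 3 reads were taken as the floor. The receptors and pathway lists were chosen with earlier results of these data known. The rule for list genes took those with the largest change per direction between liver ages and every list gene called between the sexes, and further list genes were named after their values were seen. Genes most like a receptor were the 2 with the smallest difference. Per the study's methods, the embryos came from fewer litters than embryos. Which embryos share a litter is not in the labels, so they were treated as independent and p-values against embryos may be too small. Litters of the livers were not given, and p-values measure the spread between these samples. Alternatives were DESeq2 1.42.0, its size factors, no filter, the share outside genes as a covariate, a replicate block, 1 fit of all 64 libraries and leaving out ES samples. Leaving out female fetal liver 14, livers under 2000000 reads and library totals were added after seeing the data, as were intestinal and pancreatic marker lists. Some list genes that met the naming rule are not reported here.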

Additional observations from a re-analysis of the deposited data

Results flagged for a closer look

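Among embryos and ES samples, 20 groups with reads of a receptor were tested for a single sample far from the others by Dixon's ratio, and 6 were marked. Chance marks about 1 in 20 groups of normally distributed values, a rate that does not apply here, since all 6 were receptors with few reads and in 5 of them every other sample was at 0. In embryos these were Nr1h4 in male embryo 2 (1.83 CPM, 13 reads) and in female embryo 10 (2.35 CPM, 14 reads), Nr0b2 in female embryo 10 (5.04 CPM, 30 reads) and Pparg in male embryo 4 (0.564 CPM, 5 reads). In ES cells they were Nr0b2 in sample 1 (0.0722 CPM) and Pparg in sample 4 (0.0786 CPM), each from 1 read.

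The sex gap of Nr1i3 differed between adult and fetal liver in the main fit, with an interaction of -0.74 on the log2 scale (edgeR, adjusted p = 0.0135). In that fit 13.7% of all genes were called. With the share of reads outside genes as a covariate, the value was -0.68 and was not called (edgeR, adjusted p = 0.426). Of 24 adult livers, 9 of 12 females lay above every male, and in fetal liver 1 of 12 females did.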

How the results depend on the processing

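Of 413 values of single receptors under alternatives, 409 kept their direction and side of the threshold, or had no call to lose. The exceptions were Nr1i3 in the interaction with the share of reads outside genes as a covariate (-0.68), Nr0b2 in the interaction with DESeq2 (0.96) and in livers with at least 2000000 reads (1.03), and Hnf4a between ES cells and embryos with DESeq2 (5.54). The cause was not tested. The interaction then had 2 receptors called with DESeq2 and in the deeper livers, and 0 with the covariate, against 1. ES cells against embryos gave 6 receptors called with no expression filter, against 3, since more genes were tested. Over all genes, no filter raised the calls between the sexes to 1057 in fetal and 1518 in adult liver. The covariate lowered them to 9 in fetal liver, where it does not overlap between the sexes, and to 744 in the interaction, against 600 and 1787. Leaving out each ES sample gave 10 receptors in each case against fetal liver and 3 against embryos.

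Replicate numbers did not pair the samples. The 24 correlations of same-numbered fetal and adult livers ran from -0.08 to 0.04. With the replicate block, 8753 genes were called between liver ages against 8742, and all 10 receptors stayed called. Depth limits Nr0b2 in fetal liver, with 90 reads in all, and Pparg in adult liver, with 7 to 76 reads per library.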
